A study of Mus musculus with 31 samples.

Results

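The endoplasmic reticulum (ER) folding and stress response genes described here are 38 named genes, which were looked up by symbol among the 31172 gene symbols of each liver and were all found. They are 11 chaperones of the ER lumen and their cofactors, 5 thiol oxidoreductases, 7 genes of ER-associated degradation, 4 stress sensors and their factors, 9 genes of the integrated stress response with ATF4 and its targets, and 2 Gadd45 genes. Liver RNA was sequenced from 31 *hFIX-R29X* mice of both sexes, aged 8 to 14 weeks. Every mouse, the DPBS-treated ones included, lacked the mouse FIX gene and carried a minigene of human FIX that holds the nonsense mutation R29X, expressed in hepatocytes from the human transthyretin promoter. The mice received DPBS (n = 11), Control-GalNAc-ASO at 15 mg/kg (n = 4) or 20 mg/kg (n = 6), or *Upf3b*-GalNAc-ASO at 10 mg/kg (n = 5) or 20 mg/kg (n = 5), under the skin as 6 doses at intervals of 5 days, and were killed 48 h after the final dose. An ASO is an antisense oligonucleotide, here linked to the sugar GalNAc, which is taken up through a receptor of hepatocytes. The control ASO has a scrambled sequence, and the *Upf3b* ASO targets the mRNA of UPF3B, a factor of nonsense-mediated mRNA decay (NMD). The lower doses of both ASOs differ, so that their comparison is not dose matched. Replicates are separate mice.

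Proteins that enter the ER are folded by chaperones, of which BiP, the product of *Hspa5*, is the central one, and are linked by disulfide bonds through oxidoreductases. Proteins that fail to fold are sent back to the cytosol and degraded. When unfolded proteins build up, the sensors IRE1 (*Ern1*), ATF6 and PERK (*Eif2ak3*) start the unfolded protein response: IRE1 splices *Xbp1* mRNA, ATF6 is released as a transcription factor, and PERK phosphorylates eIF2α, which slows translation but lets ATF4 be made. Hepatocytes secrete most plasma proteins, blood clotting factors among them, and carry a high load on this machinery. NMD removes transcripts with early stop codons and also some normal ones. The study measured *Atf3* and *Gadd45b* as NMD substrates, and *Atf4*, *Ddit3*, *Gadd45a* and *Ern1* are known as such in general, so the group sets chaperones beside stress genes that NMD acts on.

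Expression is given as deposited, in TPM, in which every mouse has the same total. Each mouse had between 1020676 and 7391615 reads, as far as the steps between values show, with a median of 3627941, and 3 reads were worth 0.406 to 2.94 TPM. That floor covers counting error only. The targeted gene was measured first. DPBS-treated mice had a *Upf3b* level of 97.3 ± 33.2 TPM (SD, n = 11), which was 57.8 ± 22.1 TPM (SD, n = 4) and 111 ± 21.8 TPM (SD, n = 6) with the control ASO at 15 and 20 mg/kg, 21.5 ± 20.0 TPM (SD, n = 5) with the *Upf3b* ASO at 10 mg/kg and 7.80 ± 5.82 TPM (SD, n = 5) at 20 mg/kg. All 5 mice at the higher *Upf3b* ASO dose were below every mouse of the control ASO and DPBS groups. At 10 mg/kg replicate 3 had 53.7 TPM, within the 27.1 to 78.7 TPM of the control ASO mice at 15 mg/kg. The other mice at 10 mg/kg had 3.95 to 23.3 TPM, below every mouse of those groups. Hepatocyte markers (*Alb*, *Apoa1*, *Ttr*, *Serpinc1*, *Tat*, *Cps1*) were all present and summed to between 13234 and 34726 TPM, as in liver. In whole liver, fewer cells of a type and less RNA per cell cannot be told apart.

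Among the mice, 4 stood apart. The mouse of replicate 3 at 10 mg/kg of the *Upf3b* ASO had the fewest reads of the series and a median correlation with its group of 0.672, and replicates 6 and 7 of the DPBS group had 0.724 and 0.772, where the other mice had 0.788 to 0.892. These 3 mice were the highest of all 31 for 17.2%, 9.12% and 6.67% of all genes tested, and for 3, 1 and 1 of the 38 genes. The first of them was the lowest for 9 of the 38. Replicate 2 at 20 mg/kg of the *Upf3b* ASO, with a median correlation of 0.788, was the highest for 9 of the 38 genes and the lowest for 5, while it was the highest for 4.64% of all genes tested. Its 50 highest genes held 38.2% of its TPM, where those of the other mice held 26.2% to 33.1%. Its median-of-ratios size factor was 0.776, the lowest of the series, the next being 0.928. As every mouse has the same total, a larger share for some genes leaves less for the rest. The part of this in its low values was not tested. Without either DPBS mouse the calls among these genes in the comparisons with DPBS did not change. Without replicate 2 the log2 fold changes of 17 of the 32 genes tested moved by over 1.5 times or changed sign at 20 mg/kg against the control ASO (6 changed sign), and 20 did against DPBS (5 changed sign). Without replicate 3 this held for 16 genes at the lower doses of both ASOs (3 changed sign) and for 23 against DPBS (9 changed sign). Role medians and the genes described one by one are given without these 2 mice where they moved in this way.

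The level of each gene against the DPBS mean is shown for every mouse in the heatmap. Levels of neighbouring genes are not comparable in it, since each row is centred on its own DPBS mean.

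**Figure D1:**
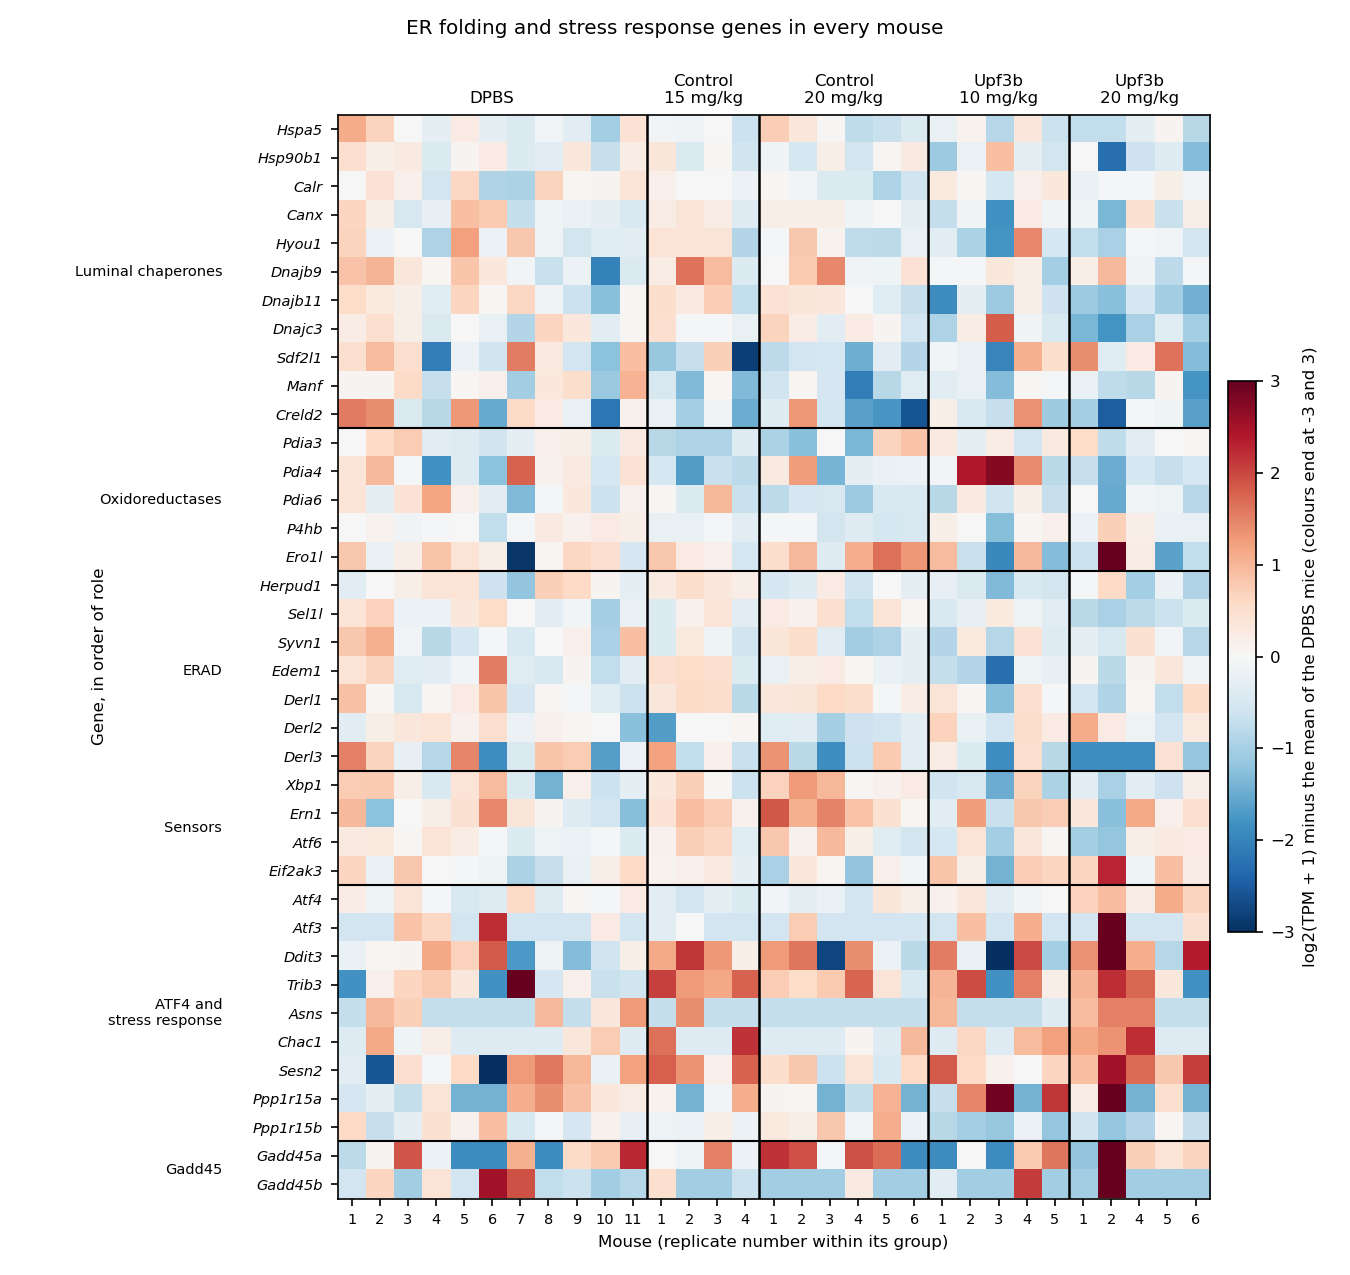
Rows are the 38 genes in order of role and columns the 31 mice by group, and colour gives log2(TPM + 1) minus the mean of the 11 DPBS-treated mice, with colours ending at -3 and 3. In the replicate 2 column at 20 mg/kg of the *Upf3b* ASO, 6 genes lie past the upper end of the colours: *Atf3* (29.2 TPM), *Gadd45a* (138 TPM), *Gadd45b* (79.7 TPM), *Ddit3* (105 TPM), *Ero1l* (82.6 TPM) and *Ppp1r15a* (25.9 TPM).

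Chaperone genes and ATF4 targets are known to be driven through different promoter elements, and 6 promoters are shown because they carry one of them. A RefSeq promoter, 250 bases before to 50 bases after the first transcribed base (GRCm38.p6), was available for 33 of the 38 genes. Both strands were searched for the ER stress response element ERSE (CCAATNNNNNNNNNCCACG, where N is any base), the core of the unfolded protein response element UPRE (TGACGTGG) and the C/EBP-ATF response element CARE (TGATGNAA). ERSE was found in 9 of the 33 genes (*Hspa5*, *Hsp90b1*, *Calr*, *Canx*, *Dnajc3*, *Creld2*, *Pdia6*, *Syvn1*, *Derl3*) and in 39 of all 32851 promoters (0.119%). CARE was found in *Atf3*, *Trib3*, *Asns*, *Chac1* and *Herpud1*, which is 5 of the 33, and in 1304 of all promoters (3.97%). The UPRE core was in none of the 33 genes and in 0.676% of all promoters. No promoter of the group held both ERSE and CARE so that matches of different elements did not overlap, and *Hsp90b1* had 2 matches of ERSE. A match describes letters in this window and says nothing about binding in these livers. The promoters of *Hspa5*, *Herpud1* and 3 ATF4-linked genes with a match are printed with that of *Dnajc3*, which was added after its values were seen. They run in the direction of each gene, and the capitals mark the fixed letters of the element, read on the opposite strand in *Herpud1*, *Atf3* and *Trib3*. The element began 65 bases before the start in *Hspa5*, 105 before it in *Dnajc3*, 112 before it in *Herpud1*, 110 before it in *Atf3* and 23 before it in *Asns*. In *Trib3* it began 14 bases after the first transcribed base.
*Hspa5* (ERSE, chr2:34771840-34772139, plus strand): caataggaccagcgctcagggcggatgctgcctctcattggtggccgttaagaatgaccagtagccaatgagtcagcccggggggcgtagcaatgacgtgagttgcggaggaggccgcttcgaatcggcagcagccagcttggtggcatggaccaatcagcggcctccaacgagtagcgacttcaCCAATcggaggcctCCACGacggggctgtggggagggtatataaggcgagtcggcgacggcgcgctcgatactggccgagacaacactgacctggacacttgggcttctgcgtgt
*Dnajc3* (ERSE, chr14:118937682-118937981, plus strand): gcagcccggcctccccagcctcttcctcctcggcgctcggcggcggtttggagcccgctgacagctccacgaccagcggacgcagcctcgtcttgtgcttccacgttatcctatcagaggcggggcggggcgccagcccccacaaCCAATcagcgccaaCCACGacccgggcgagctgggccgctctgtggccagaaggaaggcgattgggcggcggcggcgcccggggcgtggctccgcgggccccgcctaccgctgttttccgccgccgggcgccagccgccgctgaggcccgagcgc
*Herpud1* (CARE, chr8:94386179-94386478, plus strand): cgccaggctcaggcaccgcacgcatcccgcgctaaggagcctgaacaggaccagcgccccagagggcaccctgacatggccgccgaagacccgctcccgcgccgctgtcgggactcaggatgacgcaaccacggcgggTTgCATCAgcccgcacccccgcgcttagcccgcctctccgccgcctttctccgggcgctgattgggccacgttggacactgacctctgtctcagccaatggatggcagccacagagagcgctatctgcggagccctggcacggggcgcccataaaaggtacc
*Atf3* (CARE, chr1:191183284-191183583, minus strand): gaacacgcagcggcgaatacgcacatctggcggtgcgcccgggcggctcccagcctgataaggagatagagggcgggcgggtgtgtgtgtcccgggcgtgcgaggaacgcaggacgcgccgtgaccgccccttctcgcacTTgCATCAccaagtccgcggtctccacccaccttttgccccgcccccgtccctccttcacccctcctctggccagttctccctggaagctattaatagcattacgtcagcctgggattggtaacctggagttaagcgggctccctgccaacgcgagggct
*Trib3* (CARE, chr2:152344011-152344310, minus strand): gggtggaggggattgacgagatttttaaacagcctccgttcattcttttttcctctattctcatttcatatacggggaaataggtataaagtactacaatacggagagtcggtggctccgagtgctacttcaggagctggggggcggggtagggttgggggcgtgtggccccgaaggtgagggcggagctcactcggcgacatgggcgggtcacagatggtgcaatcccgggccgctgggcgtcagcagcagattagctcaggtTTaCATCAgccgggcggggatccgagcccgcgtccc
*Asns* (CARE, chr6:7693160-7693459, minus strand): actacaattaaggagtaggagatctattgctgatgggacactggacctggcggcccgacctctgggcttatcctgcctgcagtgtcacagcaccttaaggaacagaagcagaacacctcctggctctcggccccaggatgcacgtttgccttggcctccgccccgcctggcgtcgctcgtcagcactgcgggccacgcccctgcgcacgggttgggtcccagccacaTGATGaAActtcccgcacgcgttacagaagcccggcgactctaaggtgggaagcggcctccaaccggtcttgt

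The first question was whether lowering *Upf3b* at matched dose changed these genes. Of the 38 genes, 32 had a mean of at least 5 TPM over the 31 mice and were tested. With the *Upf3b* ASO at 20 mg/kg against the control ASO at 20 mg/kg, 1 of the 32, the chaperone cofactor gene *Dnajc3*, fell at an adjusted p under 0.05 (limma, Benjamini-Hochberg over the 9075 genes tested), and none rose. Among all genes tested 2.59% were called, 88 upward and 147 downward, or 153 upward of 275 under a median-of-ratios scaling. At an unadjusted p under 0.05 there were 11 of the 32 (34.4%) beside 18.3% of all genes: *Dnajc3*, *Dnajb11*, *Hsp90b1*, *Sel1l*, *Derl1*, *Xbp1* and *Ppp1r15b* lower, and *Atf4*, *Sesn2*, *Eif2ak3* and *Derl2* higher. At a 2-fold change with an unadjusted p of at most 0.01 there were 3 (*Sesn2* higher, *Dnajc3* and *Dnajb11* lower) beside 6.19%. Without replicate 2 of the treated group, 10 of the 32 (31.2%) had an unadjusted p under 0.05, beside 18.1% of all genes. The median log2 fold change, here and below of TPM + 1, was -0.13 over the 32 genes and -0.12 over all genes, or -0.23 and -0.05 without that mouse. Under the median-of-ratios scaling those medians were -0.02 and -0.01, and 16 of the 32 genes lay above 0 where 12 did without it, so changes are read against the median of all genes.

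By role the medians at 20 mg/kg were -0.37 for the 11 chaperones and cofactors, 0.11 for the 5 oxidoreductases, -0.63 for the 4 sensors and their factors and 0.80 for the 5 tested genes of the integrated stress response. The 6 tested genes of ER-associated degradation had a median of -0.08, which became 0.04 under the median-of-ratios scaling. Without replicate 2 of the treated group the medians were -0.19 for chaperones, 0.24 for oxidoreductases, -0.35 for sensors, 0.76 for the integrated stress response and -0.10 for degradation. None of these medians was tested, since the genes were chosen with results of these data known. The plot of fold changes shows how widely single genes of a role were spread. With the *Upf3b* ASO at 10 mg/kg against the control ASO at 15 mg/kg the medians were -0.06 for chaperones, which was 0.01 with a replicate block, -0.24 for degradation, -0.40 for sensors and -0.81 for the integrated stress response. For oxidoreductases the median was -0.01, and 0.01 under the median-of-ratios scaling. Without replicate 3 of the treated group they were -0.30 for chaperones, -0.27 for sensors, -0.32 for the integrated stress response and 0.30 for oxidoreductases, and -0.24 for degradation. Against the control ASO, the median of the integrated stress response genes thus lay above 0 at the higher dose and below it at the lower one, with 4 of 5 and 1 of 5 genes above 0 (3 of 5 and 1 of 5 without these mice), and the difference between the doses was tested only gene by gene. Against DPBS that median was 0.71 at 20 mg/kg and -0.005 at 10 mg/kg of the *Upf3b* ASO. Without replicate 2 and replicate 3 these were 0.66 and 0.66. For the control ASO against DPBS it was 0.19 at 20 mg/kg and 1.17 at 15 mg/kg, so the lower-dose sign depends on the group compared with.

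**Figure D2:**
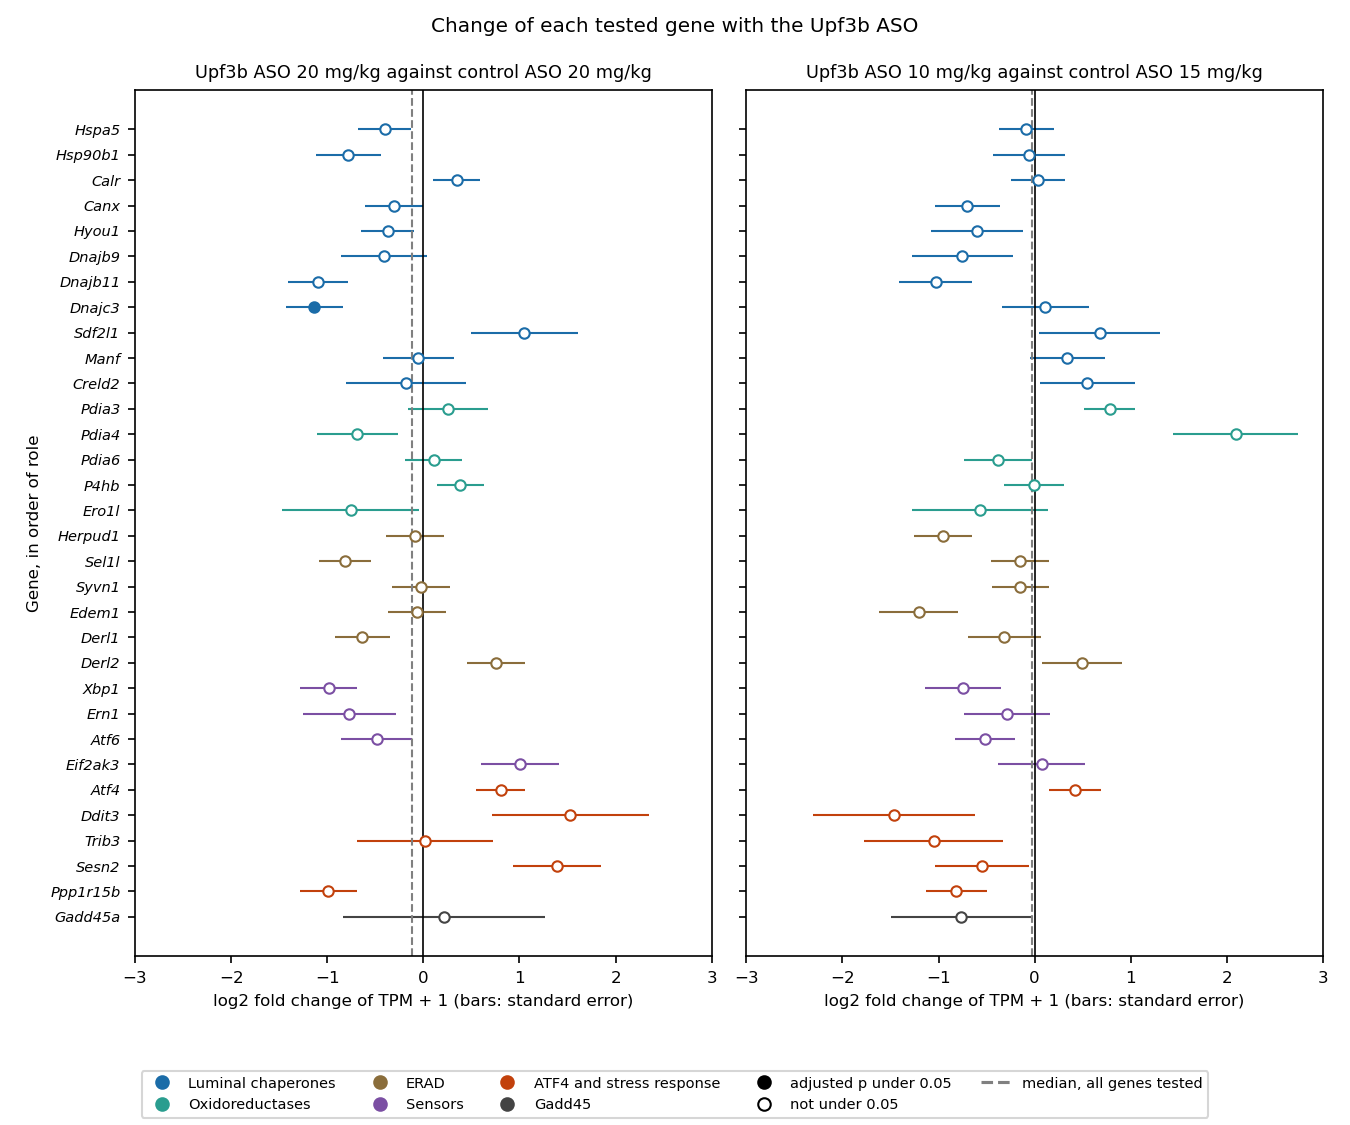
Points are log2 fold changes of TPM + 1 for the 32 tested genes, in order of role, with bars for the standard error, for the *Upf3b* ASO at 20 mg/kg against the control ASO at 20 mg/kg (left) and at 10 mg/kg against 15 mg/kg (right). The only filled point, at an adjusted p under 0.05, is *Dnajc3* at -1.13 on the left, and the dashed lines mark the median of all genes tested, -0.12 and -0.02.

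*Dnajc3* encodes P58IPK, a cofactor of BiP in the ER lumen that also restrains PERK. It was 82.0, 60.9, 109.6, 168 and 104 TPM in the 5 mice given the *Upf3b* ASO at 20 mg/kg. In the control ASO group at 20 mg/kg it ranged from 145 to 344 TPM with a median of 239, and in DPBS-treated mice from 116 to 338 with a median of 219.5. Of the 5 treated mice, 4 were below every mouse of both groups, and replicate 5 overlapped with them. The log2 fold change was -1.13 ± 0.29 (SE) against the control ASO (adjusted p = 0.0451) and -1.17 ± 0.25 against DPBS (adjusted p = 0.0139), the only call among the 32 genes in the DPBS comparison too, where 1.07% of all genes were called. Both comparisons use the same 5 treated mice.

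The call of *Dnajc3* against the control ASO was close to the threshold. It was lost when any of 8 of the 11 mice was left out, with log2 fold changes over the 11 fits between -1.34 and -0.98 and adjusted p between 0.0180 and 0.146, and without replicate 2 of the treated group it was -0.98 (adjusted p = 0.0583). Against DPBS it held without each of the 5 treated and each of the 11 DPBS-treated mice, with adjusted p from 0.00800 to 0.0412. It was also lost against the control ASO when low genes were kept in (adjusted p = 0.123) and in a fit of all 31 mice (0.0585), which gave 0.0511 against DPBS. The 5 endothelial markers (*Pecam1*, *Stab2*, *Kdr*, *Lyve1*, *Clec4g*) summed to 1535 to 2210 TPM in the treated mice and 591 to 1643 TPM in the control ASO mice. *Pecam1* rose by 1.27 on the log2 scale (limma, adjusted p = 0.0205), and the other 4 were between -0.72 and -0.06 with adjusted p from 0.358 to 0.962. Sums of Kupffer cell markers were 308 to 660 TPM in the treated and 215 to 762 TPM in the control mice. The 6 markers of lymphoid and plasma cells, which are rich in ER chaperones, each had a mean under 5 TPM, and they summed to at most 14.6 TPM in the treated mice and 12.2 TPM in the control mice. The part of these cells in the fall of *Dnajc3* was not tested.

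*Dnajc3* was not called at 10 mg/kg. The 5 mice had 112, 250.3, 763, 199 and 155 TPM and the 4 mice of the control ASO at 15 mg/kg had 302, 204, 206 and 185 TPM. Replicate 3 was the highest of all 31 mice, and the other 4 overlapped with the controls. The log2 fold change was 0.11 ± 0.45 (adjusted p = 0.939) with replicate 3 and -0.42 (adjusted p = 0.512) without it. The effects at the 2 dose levels differed by -1.23 ± 0.53 (unadjusted p = 0.0285, adjusted p = 0.569), which did not pass the threshold.

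*Dnajb11*, another J-domain cofactor of BiP, was 29.2, 25.9, 44.2, 30.3 and 22.8 TPM at 20 mg/kg of the *Upf3b* ASO. Control ASO mice at that dose ranged from 38.8 to 85.9 TPM with a median of 71.4. Of the 5 treated mice 4 were below all 6 controls and replicate 4 was not. With a log2 fold change of -1.10 ± 0.31 it missed the threshold (adjusted p = 0.0683), as it did against DPBS (-1.12, adjusted p = 0.0680) and at 10 mg/kg against 15 mg/kg (-1.03, adjusted p = 0.234). It was chosen for description after its values were seen.

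*Hspa5*, the gene of BiP, was 2033, 2049, 2825, 3589 and 1919 TPM at 20 mg/kg of the *Upf3b* ASO and 2948, 3625, 1875, 4270.3 and 2155 TPM at 10 mg/kg. It ranged from 1993 to 5660.4 TPM (median 2983) with the control ASO at 20 mg/kg, and the 4 mice at 15 mg/kg had 3217, 3165, 3385 and 2152 TPM. DPBS-treated mice covered 1659 to 7286 TPM with a median of 3191. Both treated groups lay inside the DPBS range. Log2 fold changes were -0.40 ± 0.28 at 20 mg/kg (adjusted p = 0.469) and -0.09 ± 0.29 at the lower doses (adjusted p = 0.919), or 0.04 without replicate 3.

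*Hsp90b1*, which encodes the ER Hsp90 chaperone GRP94, was 1227, 253, 792, 932 and 494 TPM at 20 mg/kg of the *Upf3b* ASO, where the control ASO group ranged from 825 to 1480.2 TPM with a median of 1185. Replicate 2 had the lowest value of the series, and the groups overlapped. The log2 fold change was -0.78 ± 0.34 (adjusted p = 0.227) with that mouse and -0.45 without it. Mice at 10 mg/kg had 572, 1074, 2286, 1018 and 834 TPM against 1565, 905, 1239 and 802 TPM at 15 mg/kg of the control ASO, with -0.06 ± 0.38 (adjusted p = 0.963). Replicate 3 there was the highest of all 31 mice, and without it the log2 fold change was -0.43 (adjusted p = 0.471).

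*Calr* encodes calreticulin, a lectin that binds glycoproteins while they fold. It was 282, 311, 312, 368 and 309 TPM at 20 mg/kg of the *Upf3b* ASO and 170.2 to 340.3 TPM (median 239) with the control ASO, and the groups overlapped. The mice at 10 mg/kg had 396, 331, 224, 363 and 405 TPM, against 361, 323, 329 and 286 TPM at 15 mg/kg of the control ASO. Log2 fold changes were 0.35 ± 0.24 (adjusted p = 0.479) and 0.04 ± 0.28 (adjusted p = 0.964), the latter 0.21 without replicate 3.

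With DPBS *Canx*, the membrane-bound lectin calnexin, was 151 ± 62.1 TPM (SD, n = 11), *Hyou1*, an ER chaperone of the Hsp70 family, 334 ± 168 TPM, and *Dnajb9*, a J-domain cofactor, 11.5 ± 5.96 TPM. *Sdf2l1*, an ER stress-induced partner of J-domain proteins, was 13.4 ± 9.14 TPM, and the stress-induced secreted factors *Manf* and *Creld2* were 68.2 ± 29.9 and 93.3 ± 67.7 TPM. These 6 genes had log2 fold changes from -0.41 (*Dnajb9*) to 1.05 (*Sdf2l1*) at 20 mg/kg and from -0.75 (*Dnajb9*) to 0.68 (*Sdf2l1*) at the lower doses, with adjusted p of at least 0.324 and 0.342. Their groups overlapped in both comparisons. Without replicate 2 at 20 mg/kg *Creld2* was 0.23 in place of -0.18 and *Manf* 0.04 in place of -0.05. *Hyou1* was then -0.19 in place of -0.37 and *Canx* -0.06 in place of -0.30. Without replicate 3 at the lower doses *Canx* was -0.42 in place of -0.70, *Hyou1* -0.30 in place of -0.60 and *Manf* 0.56 in place of 0.34.

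*Sil1*, which is not among the 38 genes, fell in all 4 comparisons with the *Upf3b* ASO. It encodes the nucleotide exchange factor that releases ADP from BiP, and it came from a list of 50 other ER folding and degradation genes, of which 48 were in the files and 46 were tested. *Sil1* was 5.11, 0.384, 1.38, 0.977 and 0 TPM at 20 mg/kg of the *Upf3b* ASO and 1.3, 4.98, 0, 5.21 and 0 TPM at 10 mg/kg. It was 20.3 to 48.7 TPM (median 35) and 33.8, 28.6, 35.3 and 30.3 TPM with the control ASO at 20 and 15 mg/kg. No treated mouse reached the lowest control ASO mouse. In DPBS-treated mice it was between 14.7 and 40.5 TPM in 10 mice and listed at 0 in replicate 6, the only overlap.

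*Sil1* fell by 4.0 on the log2 scale against the control ASO at 20 mg/kg (SE 0.52, adjusted p = 0.000297) and by 3.82 at the lower doses (SE 0.65, adjusted p = 0.0254). Against DPBS it fell by 3.55 at 20 mg/kg (adjusted p = 0.00727) and fell by 3.40 at 10 mg/kg (adjusted p = 0.0250). Of the 10 treated values 6 are worth at most 3 reads, so these sizes depend on the pseudocount: at 20 mg/kg against the control ASO, pseudocounts of 0.5 and 5 gave -4.49 and -2.57. The call at 20 mg/kg against the control ASO held without each of the 11 mice. At the lower doses it was lost without any of the 4 control mice (adjusted p up to 0.154), against DPBS at 20 mg/kg without replicate 6 (0.0573), and against DPBS at 10 mg/kg without replicates 1, 3 or 5 of the treated mice (up to 0.168) or 1, 8 or 11 of the DPBS-treated mice (up to 0.0547). With a pseudocount of 0.5 the adjusted p was 0.0573 at the lower doses and 0.0550 against DPBS at 10 mg/kg. *Sil1* was the only gene called on that list in each of these 4 comparisons, and whether its transcript holds a match to the ASO was not tested.

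**Figure D3:**
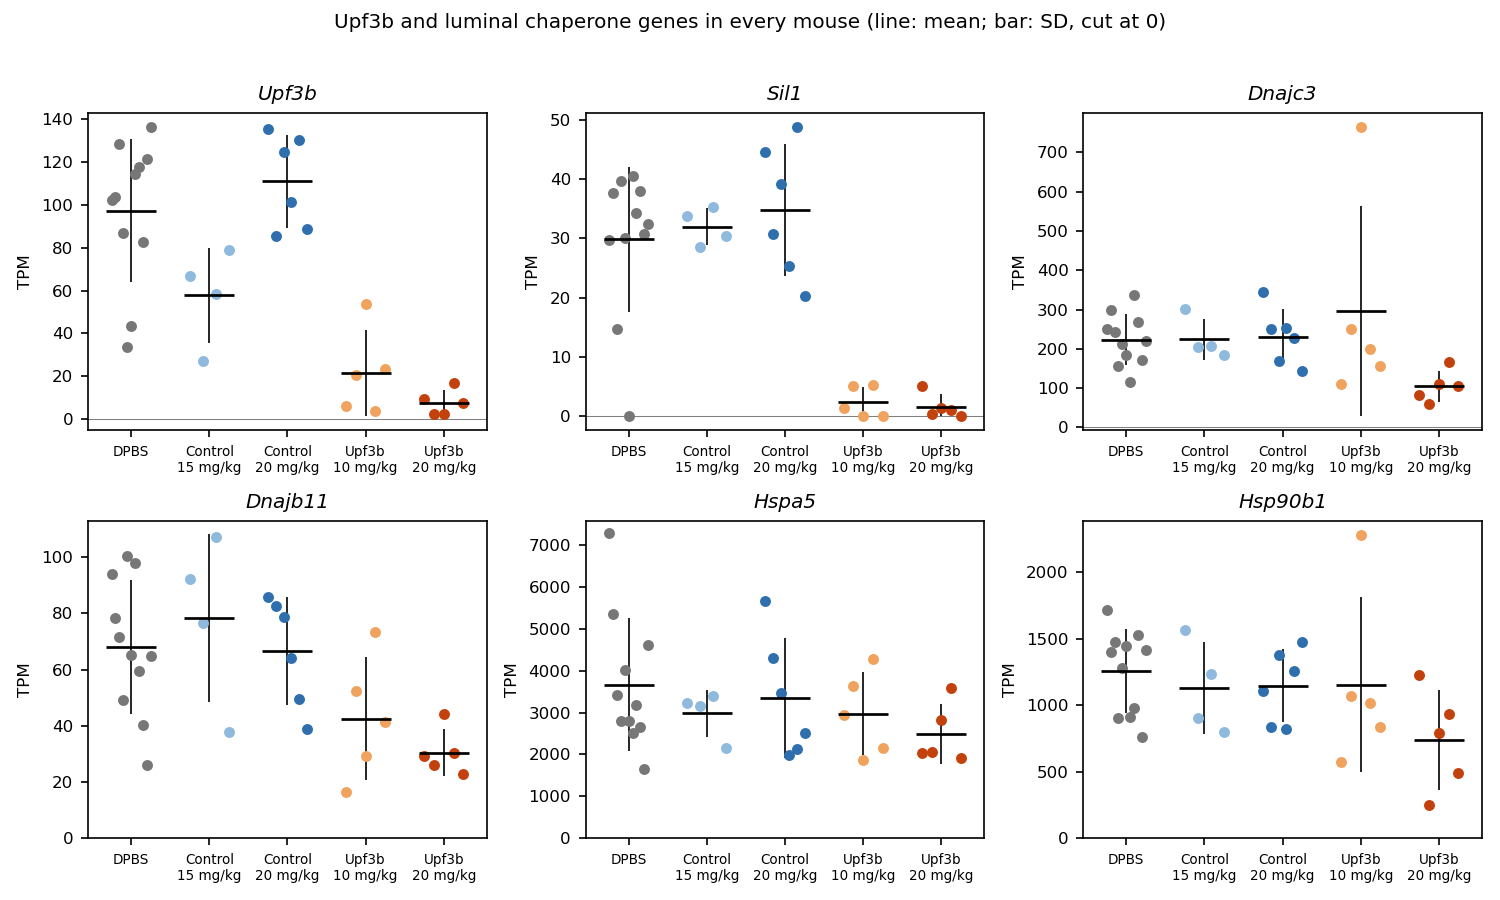
Each point is 1 mouse, in TPM, for *Upf3b*, *Sil1* and 4 chaperone genes in the 5 groups, with the group mean as a line and the SD as a bar cut at 0. *Sil1* stays at or below 5.21 TPM in all 10 *Upf3b* ASO mice, *Dnajc3* is between 60.9 and 168 TPM at 20 mg/kg, and the *Hspa5* groups overlap.

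Among the thiol oxidoreductases, *Pdia4* had the largest change at the lower doses. This protein disulfide isomerase was 30.9, 177, 225, 88.8 and 18.3 TPM at 10 mg/kg of the *Upf3b* ASO and 22.3, 9.54, 20.1 and 18.6 TPM at 15 mg/kg of the control ASO. Of the 5 treated mice 4 were above all 4 controls, and replicate 5 was not. The log2 fold change of 2.09 ± 0.65 missed the threshold (adjusted p = 0.177) and was 1.61 without replicate 3. DPBS-treated mice had 8.59 to 115 TPM, a range in which replicates 1, 4 and 5 of the treated mice lay. Against DPBS the log2 fold change at 10 mg/kg was 1.08 (limma, adjusted p = 0.645), or 0.50 without replicate 3. *Pdia4* at 20 mg/kg was 19.8, 10.9, 22.6, 20.0 and 22.4 TPM, against 11.8 to 79.3 TPM (median 28.8) in the control ASO group. Its log2 fold change there was -0.69 ± 0.42 (adjusted p = 0.400). The 2 effects against the control ASO differed by -2.75 ± 0.76 (unadjusted p = 0.00125, adjusted p = 0.407). In that test of the difference none of the 32 genes and 0 of all 9075 passed an adjusted p under 0.05, and 4 of the 32 had an unadjusted p under 0.05 beside 8.08% of all genes.

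The other 4 oxidoreductases were not called. *Pdia3*, *Pdia6* and *P4hb*, which encode protein disulfide isomerases, were 2682 ± 849, 313 ± 140.1 and 667 ± 110.2 TPM (SD, n = 11) with DPBS. They had log2 fold changes of 0.26, 0.11 and 0.39 at 20 mg/kg and 0.78, -0.38 and -0.01 at the lower doses (adjusted p of at least 0.209). Without replicate 2 at 20 mg/kg they were 0.42, 0.36 and 0.24, and without replicate 3 at the lower doses *P4hb* was 0.30. *Ero1l* encodes the oxidase that recharges them. It was 3.83, 82.6, 7.83, 1.47 and 3.49 TPM at 20 mg/kg of the *Upf3b* ASO, so that replicate 2 was above the control ASO range of 4.79 to 22.7 TPM, replicates 1, 5 and 6 were below it and replicate 4 was within it. Its log2 fold change was -0.76 with that mouse and -1.55 without it (adjusted p = 0.141).

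At the lower doses, with limma, none of the 32 genes was called and 0.22% of all genes were (20 genes, or 91 without replicate 3, when again none of the 32 was called). At an unadjusted p under 0.05 there were 6 of the 32 (18.8%) beside 15% of all genes. They were *Pdia4*, *Pdia3*, *Dnajb11*, *Ppp1r15b* and the degradation genes *Herpud1* and *Edem1*. *Herpud1*, which anchors the degradation complex in the ER membrane, was 135, 119, 63.7, 117 and 109 TPM at 10 mg/kg of the *Upf3b* ASO and 194, 231, 200.4 and 183 TPM at 15 mg/kg of the control ASO. All 5 treated mice were below all 4 controls, as they were for 2.6% of all genes tested. Its log2 fold change was -0.95 ± 0.30 (adjusted p = 0.179), and -0.75 without replicate 3. The 5 mice at 20 mg/kg had 153, 242, 78.7, 139 and 85.0 TPM against 105 to 191 TPM (median 126), with overlapping groups and a log2 fold change of -0.09 ± 0.30 (adjusted p = 0.913), or -0.29 without replicate 2. The hepatocyte marker *Tat* was also lower than with the control ASO at the lower doses, by 1.99 on the log2 scale (adjusted p = 0.0254). Against DPBS its log2 fold change was 1.40 with the control ASO at 15 mg/kg and -0.55 with the *Upf3b* ASO at 10 mg/kg (limma, adjusted p = 0.741 and 0.738). The other hepatocyte markers changed by -0.61 to -0.04 between the ASOs at the lower doses (limma, adjusted p from 0.359 to 0.960).

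*Edem1* encodes a lectin that hands misfolded glycoproteins over for degradation. It was 27.6, 24.9, 8.82, 42.3 and 38.7 TPM at 10 mg/kg of the *Upf3b* ASO and 66.0, 68.4, 64.5 and 34.6 TPM with the control ASO at 15 mg/kg, and replicate 4 of the control group fell among the treated mice. It had a log2 fold change of -1.21 ± 0.41 (adjusted p = 0.206) and -0.87 without replicate 3 of the treated group. With 20 mg/kg it was 48.8, 26.1, 48.8, 58.6 and 42.7 TPM against 38.1 to 54.9 TPM, with -0.06 ± 0.30 (adjusted p = 0.938) and 0.12 without replicate 2. *Sel1l*, the partner of the ubiquitin ligase gene *Syvn1*, had a log2 fold change of -0.82 ± 0.27 at 20 mg/kg (adjusted p = 0.103), *Syvn1* -0.03 (0.08 without replicate 2), and the derlin genes *Derl1* and *Derl2*, whose products move proteins out of the ER, -0.64 and 0.76. None of these 4 passed the threshold. *Derl3* was under the filter, between 0 and 9.41 TPM over all mice.

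Of the sensors and their factors, *Xbp1*, whose spliced form encodes a main activator of chaperone genes, was 89.3, 58.0, 90.3, 73.3 and 129.7 TPM at 20 mg/kg of the *Upf3b* ASO and 75.3, 81.6, 40.2, 180.4 and 58.8 TPM at 10 mg/kg. Control ASO mice had 116 to 279 TPM (median 159.8) at 20 mg/kg and 143, 189, 117 and 73.0 TPM at 15 mg/kg. Replicate 6 at 20 mg/kg overlapped with the controls and the other 4 mice were below them, and at the lower doses the groups overlapped. Log2 fold changes were -0.98 ± 0.30 (adjusted p = 0.0816) and -0.75 ± 0.39 (adjusted p = 0.385), neither past the threshold, and -0.40 against DPBS. Per-gene values hold both the spliced and the unspliced form.

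*Ern1*, the IRE1 sensor and an NMD substrate, was 10.7, 2.88, 19.3, 9.28 and 12.3 TPM at 20 mg/kg and 6.5, 21.4, 4.90, 15.4 and 14.4 TPM at 10 mg/kg of the *Upf3b* ASO. It was 8.75 to 33.0 TPM (median 17.2) and 11.6, 16.4, 14.6 and 9.13 TPM with the control ASO at 20 and 15 mg/kg. The groups overlapped, with -0.77 ± 0.49 (adjusted p = 0.412) and -0.29 ± 0.44 (adjusted p = 0.797), or -0.44 without replicate 2 and -0.14 without replicate 3. For *Atf6* the log2 fold changes were -0.49, which was -0.26 without replicate 2, and -0.52. *Eif2ak3*, the gene of PERK, was 127 TPM in replicate 2 at 20 mg/kg and 23.0 to 48.3 TPM in the other 4 mice, with log2 fold changes of 1.01 with and 0.70 without replicate 2 (adjusted p = 0.192 and 0.345).

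*Atf4*, the transcription factor at the centre of the integrated stress response, was 526, 628, 379, 715 and 517 TPM at 20 mg/kg of the *Upf3b* ASO. Control ASO mice at that dose had 224 to 424 TPM (median 297), and DPBS-treated mice 238 to 486 TPM (median 319). Every treated mouse but replicate 4 was above all 26 mice of the other groups. The log2 fold change was 0.80 ± 0.25 against the control ASO (adjusted p = 0.0882) and 0.71 ± 0.22 against DPBS (adjusted p = 0.144), so that neither passed the threshold. Without replicate 2 they were 0.76 and 0.66. At 10 mg/kg *Atf4* was 359, 413, 265, 308 and 328 TPM against 258, 221, 265 and 241 TPM at 15 mg/kg of the control ASO, with 0.42 ± 0.27 (adjusted p = 0.474).

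*Ddit3* encodes CHOP, a factor that ATF4 induces. It was 22.2, 105, 18, 3.91 and 44.3 TPM at 20 mg/kg and 24.9, 6.60, 0, 34.1 and 3.38 TPM at 10 mg/kg of the *Upf3b* ASO. With the control ASO it was 0.319 to 25.8 TPM (median 13.7) at 20 mg/kg and 18.6, 38.1, 20.7 and 8.97 TPM at 15 mg/kg. Replicates 2 and 6 at 20 mg/kg were above all controls, the rest were not, and at 10 mg/kg the mice ranged from 0 to near the top of the control values. Log2 fold changes were 1.53 ± 0.82 (adjusted p = 0.344) at 20 mg/kg, 0.90 there without replicate 2, and -1.46 ± 0.85 (adjusted p = 0.421) at the lower doses. Without replicate 3, the mouse at 0 TPM, the last value was -0.63 (adjusted p = 0.701).

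*Sesn2*, a stress-induced gene of the sestrin family that ATF4 activates, was 14.3, 45.5, 25.3, 13.2 and 33.0 TPM at 20 mg/kg of the *Upf3b* ASO and 4.15 to 13.1 TPM (median 10.2) with the control ASO. All 5 treated mice were above all 6 controls, as they were for 1.62% of all genes tested, the narrowest gap being 13.2 against 13.1 TPM. Its log2 fold change was 1.39 ± 0.46 (adjusted p = 0.109). DPBS-treated mice reached 23.2 TPM and the 4 mice of the control ASO at 15 mg/kg had 27.3, 19.5, 7.99 and 26.7 TPM, which the higher dose group overlapped. *Sesn2* at 10 mg/kg was 28.3, 11.2, 7.84, 7.16 and 11.6 TPM, with -0.55 ± 0.49 (adjusted p = 0.615), or -0.19 without replicate 3. The effects differed by 2.03 ± 0.68 (unadjusted p = 0.00599, adjusted p = 0.441).

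Of the other integrated stress response genes, *Trib3*, a pseudokinase gene induced by ATF4 and CHOP, was not called. Its log2 fold changes were 0.02 at 20 mg/kg and -1.05 at the lower doses (limma, adjusted p = 0.993 and 0.503). They were -0.32 without replicate 2 and -0.32 without replicate 3, which is at 0 TPM. *Ppp1r15b*, whose product directs the phosphatase that removes phosphate from eIF2α, was 92.7, 61.8, 76.0, 146 and 86.8 TPM at 20 mg/kg of the *Upf3b* ASO and 123 to 298 TPM with the control ASO. The mouse of replicate 5 was within the control range and the other 4 were below it. Its log2 fold changes were -0.99 ± 0.30 (adjusted p = 0.0795) and -0.81 ± 0.31 (adjusted p = 0.246) at the lower doses. *Asns*, *Chac1* and *Ppp1r15a* were under the filter, with highest values over all mice of 3.68, 5.07 and 25.9 TPM. *Asns*, asparagine synthetase, was listed at 0 in all 6 control ASO mice at 20 mg/kg and was 2.13, 3.65, 3.68, 0 and 0 TPM in the *Upf3b* ASO mice at that dose.

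The 6 genes under the filter were compared by exact permutation of log2(TPM + 1) over mice, two-sided and without sex, in 24 tests. No unadjusted p was under 0.05. The smallest were 0.0559 for *Derl3* at 20 mg/kg of the *Upf3b* ASO against DPBS (difference -1.26) and 0.0606 for *Asns* at 20 mg/kg against the control ASO (difference 1.22). Of their 186 values 106 are worth at most 3 reads, 86 of them listed at 0.

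The known NMD substrates of the group were then set side by side. *Atf3*, a stress-induced transcription factor, was 0, 29.2, 0, 0 and 1.03 TPM at 20 mg/kg and 0, 1.74, 0, 2.2 and 0 TPM at 10 mg/kg of the *Upf3b* ASO, and at most 1.49 TPM with the control ASO and 5.85 TPM with DPBS. *Gadd45b*, of the growth arrest and DNA damage family, was 0, 79.7, 0, 0 and 0 TPM and 0.650, 0, 0, 7.81 and 0 TPM at those doses, and at most 1.88 TPM with the control ASO and 10.9 TPM with DPBS. *Gadd45a*, of the same family, was 0.639, 138, 5.07, 3.91 and 4.92 TPM and 0, 2.74, 0, 5.43 and 10.3 TPM, and at most 15.7 TPM with the control ASO and 16.8 TPM with DPBS. In all 3 genes replicate 2 at 20 mg/kg was the highest of the 31 mice, and the other 4 mice of its group stayed within the range of the control and DPBS mice.

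The exact permutation p, two-sided, at 20 mg/kg against the control ASO was 0.424 for *Atf3* and 0.727 for *Gadd45b*. For *Gadd45a* the log2 fold change was 0.21 ± 1.05 with replicate 2 and -0.81 without it (adjusted p = 0.939 and 0.629), and at the lower doses -0.76 (adjusted p = 0.646). The other 3 substrates had log2 fold changes of 0.80 (*Atf4*), 1.53 (*Ddit3*) and -0.77 (*Ern1*) at 20 mg/kg and 0.42, -1.46 and -0.29 at the lower doses, so that the directions differed and none was called. *Ddit3* had opposite signs at the 2 dose levels against the control ASO. Against DPBS at 20 mg/kg the log2 fold changes of these 3 genes were 0.71, 1.54 and 0.24, or 0.66, 1.01 and 0.54 without replicate 2. At 10 mg/kg against DPBS *Ddit3* was -0.22, or 0.66 without replicate 3. With the control ASO at 15 mg/kg against DPBS it was 1.17.

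**Figure D4:**
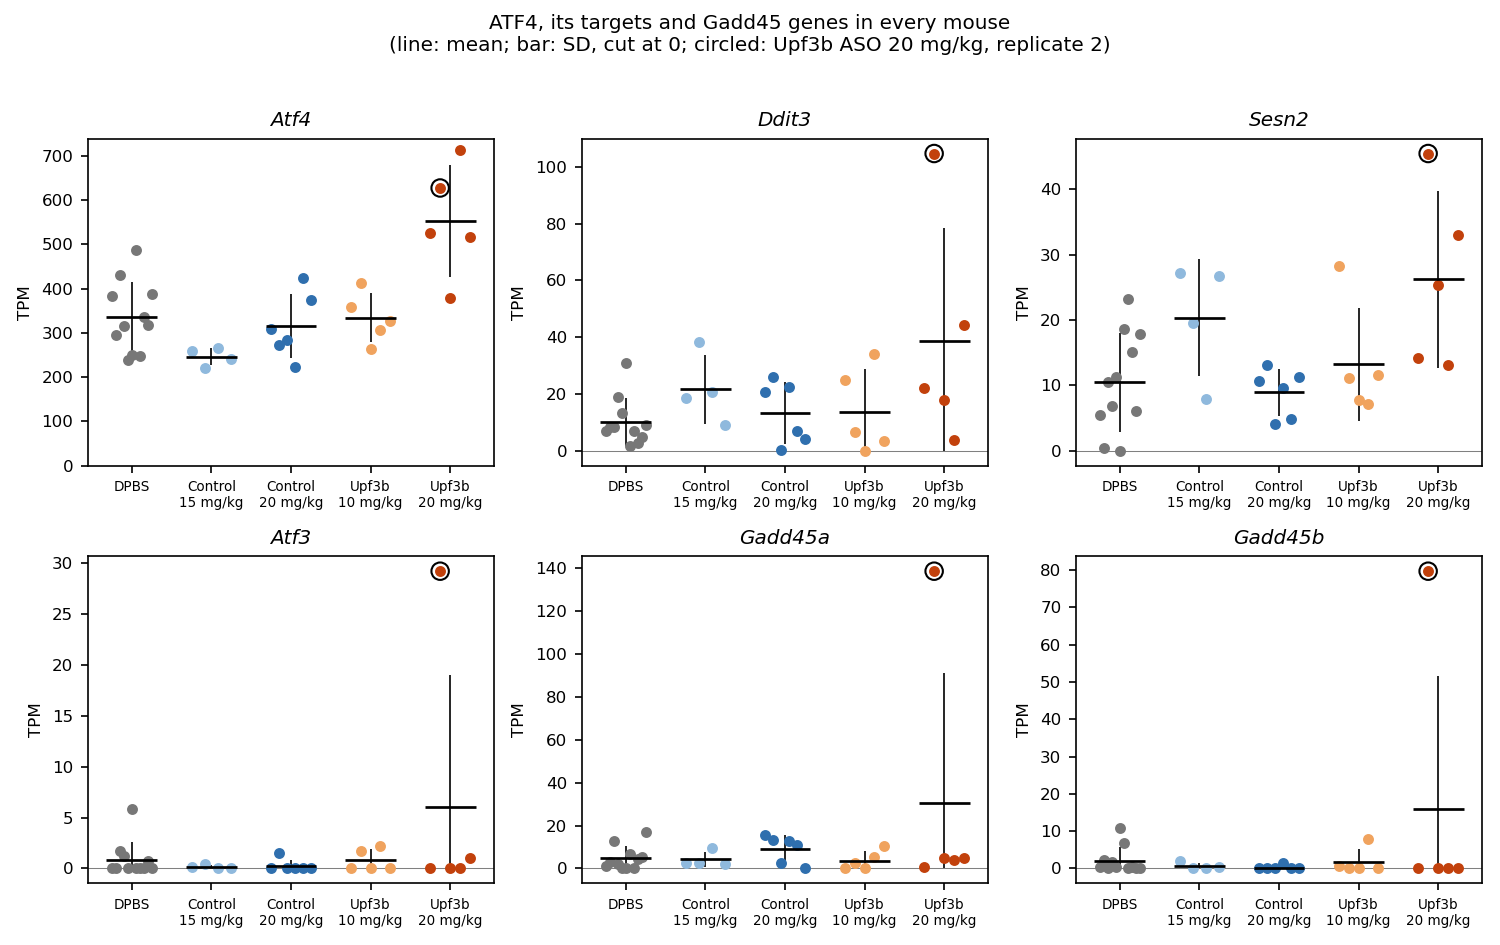
Each point is 1 mouse, in TPM, for *Atf4*, 2 of its targets, *Atf3* and the Gadd45 genes, with the group mean as a line, the SD as a bar cut at 0 and a circle around replicate 2 at 20 mg/kg of the *Upf3b* ASO. *Atf4* is 379 to 715 TPM in that group, and *Atf3*, *Gadd45a* and *Gadd45b* are highest in the circled mouse, at 29.2, 138 and 79.7 TPM.

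Features known to mark transcripts for NMD were read from 1 GENCODE M21 transcript per gene. An ATG before the start codon was present in 15 of the 38 genes (39.5%), among them *Atf4*, *Ddit3*, *Ppp1r15b*, *Atf3*, *Asns*, *Sesn2* and *Ppp1r15a*, and in 47.9% of 8668 expressed genes. None of the 38 had an exon junction over 50 bases after the stop codon, as 0.265% of expressed genes had, and 7 of the 38 (18.4%) had an annotated NMD isoform, as 29.6% had. The 12 tested genes with such an ATG had a median log2 fold change of -0.05 at 20 mg/kg and -0.57 at the lower doses, and the 20 without it -0.24 and -0.22. These are descriptions of chosen genes, and the ranges, -0.99 to 1.53 and -1.13 to 1.05 at 20 mg/kg, overlap.

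Chaperones and integrated stress response genes were compared within each mouse. The mean log2(TPM + 1) of the 5 tested integrated stress response genes was taken from that of the 11 chaperones. This difference was 1.15 ± 0.82 (SD, n = 5) at 20 mg/kg of the *Upf3b* ASO, with a range of -0.18 to 2.03. It was 1.97 ± 0.55 (SD, n = 6) with the control ASO at 20 mg/kg, 2.45 ± 0.66 (SD, n = 11) with DPBS, 2.16 ± 0.66 (SD, n = 5) with the *Upf3b* ASO at 10 mg/kg and 1.58 ± 0.52 (SD, n = 4) with the control ASO at 15 mg/kg. The lowest value was that of replicate 2 at 20 mg/kg, without which its group had 1.48 ± 0.41 (SD, n = 4), and each group overlapped with every other. The score was not tested, because its genes were chosen with results known.

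**Figure D5:**
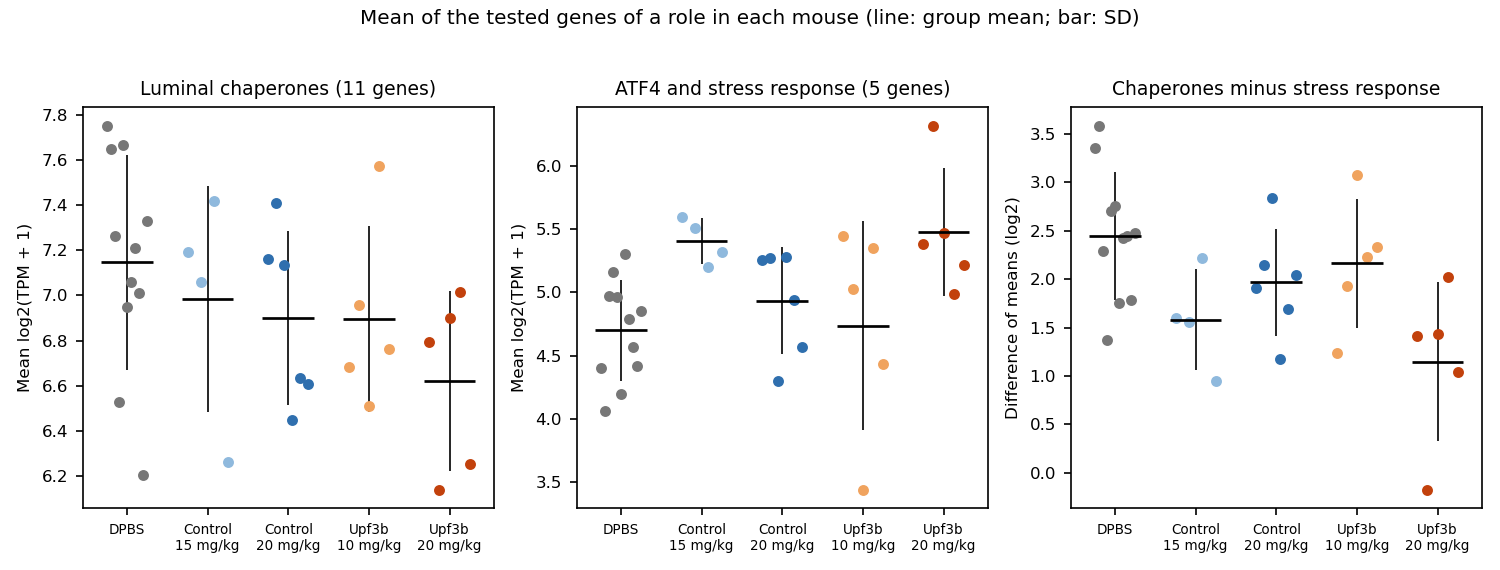
Each point is 1 mouse: the mean log2(TPM + 1) of the 11 chaperone genes (left) and of the 5 tested stress response genes (middle), and their difference (right), with the group mean as a line and the SD as a bar. The difference averages 1.15 at 20 mg/kg of the *Upf3b* ASO and 1.97 in the control ASO group at that dose, and the ranges overlap.

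The control ASO was compared with DPBS for the background that an ASO gives by itself. At both 20 and 15 mg/kg none of the 32 genes and 0 of all 9075 were called (limma), and 4 of the 32 had an unadjusted p under 0.05 at each dose, beside 9.26% and 6.67% of all genes. They were *Manf* (-0.75), *Pdia6* (-0.65), *Derl2* (-0.53) and *Ern1* (0.99) at 20 mg/kg, and *Pdia3* (-0.78), *Manf* (-0.79), *Trib3* (1.60) and *Ddit3* (1.17) at 15 mg/kg. The median over the 32 genes was -0.06 at 20 mg/kg, where all genes had 0.14, and 0.04 at 15 mg/kg, where all genes had 0.06. With the *Upf3b* ASO at 10 mg/kg against DPBS none of the 32 was called, beside 0.331% of all genes, and 4 (*Ppp1r15b*, *Dnajb11*, *Edem1* and *Herpud1*, all lower) had an unadjusted p under 0.05 beside 7.72%. At 20 mg/kg against DPBS there were 11 of the 32 beside 11.2%. Among these, the chaperone genes *Dnajc3* (-1.17), *Dnajb11* (-1.12), *Hsp90b1* (-0.93), *Hspa5* (-0.59), *Manf* (-0.80) and *Creld2* (-1.18) were lower, as were *Sel1l* (-0.72) and *Ppp1r15b* (-0.63), and the stress response genes *Atf4* (0.71), *Ddit3* (1.54) and *Sesn2* (1.58) were higher. Of the 11, 1 passed the adjusted threshold. Without replicate 2 there were 7 of the 32 (21.9%) beside 11.3%, with *Creld2* at -0.75, *Hsp90b1* at -0.59 and *Ddit3* at 1.01, and *Dnajc3* was the 1 gene called. With replicate 2 kept in, the chaperone median was -0.59 and that of the stress response genes 0.71, where all genes had 0.03. Leaving it out gave -0.47, 0.66 and 0.09. Of the 5 tested stress response genes, 4 had an unadjusted p under 0.05 (limma) with that mouse and 1 without it. The comparisons against DPBS share the same 11 DPBS-treated mice.

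Levels were also compared between the sexes without an ASO. In DPBS-treated mice none of the 32 was called between 5 males and 6 females, where 1.3% of all genes were, and 6 had an unadjusted p under 0.05, all higher in males, beside 4.14% of all genes higher in males. They were *Hspa5*, *Calr*, *Manf*, *Dnajc3*, *Pdia3* and *Syvn1*. *Hspa5* was 4770.3 ± 1662 TPM (SD, n = 5) in males and 2739 ± 753 TPM (SD, n = 6) in females, a log2 difference of 0.78 ± 0.25 (adjusted p = 0.222). *Syvn1*, the ubiquitin ligase of ER-associated degradation, was 283 ± 97 TPM in males and 141 ± 43.3 TPM in females (adjusted p = 0.142), and *Pdia3* 3361 ± 728 and 2117 ± 417 TPM (adjusted p = 0.184). The chaperone median, males against females, was 0.57, and that of the integrated stress response genes -0.02. Of the 6 hepatocyte markers *Alb* was lower in males by 0.92 on the log2 scale (limma, adjusted p = 0.0212), and the other 5 were between -0.64 and -0.07 with adjusted p of at least 0.518. Whether this bears on the chaperone values was not tested. Of the 46 other ER genes *Sec61a1*, a subunit of the channel into the ER, was higher in males by 2.64 (adjusted p = 0.00163), on values from 1717 to 33577 TPM among DPBS-treated mice. Sex was a term of every comparison with an ASO.

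On the wider lists of genes *Sil1* alone was called with the *Upf3b* ASO. Of 46 tested ER folding and degradation genes outside the 38, the median log2 fold change was -0.22 at 20 mg/kg against the control ASO and -0.33 at the lower doses. Of 11 other regulators of the response 10 were tested, with medians of 0.05 and 0.02, and of 26 other ATF4-linked genes 16 were tested, with 0.21 and -0.05. None of these 10 and 16 genes was called in either comparison. At 20 mg/kg, 0 of the 10 regulators and 2 of the 16 ATF4-linked genes had an unadjusted p under 0.05 (limma), beside 18.3% of all genes. At the lower doses there were 1 of the 10 and 4 of the 16, beside 15%.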

How the data were processed

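Liver RNA of 31 mice was analysed from 1 table of gene-level TPM values per mouse, deposited by the authors, who demultiplexed reads with bcl2fastq 2.17.1.14 and quantified them with Salmon 0.7.2 on GRCm38.p4, per the labels. The labels name a QuantSeq 3' kit and the study's methods a TruSeq kit. Low values stepped by what 1 read is worth in a mouse, for 69.93% to 81.5% of values within 0.02 of a whole read, where 4% would by chance, so values were not divided by transcript length, levels are not compared between genes, and depth was read from the step. The label field for the dose names a weekly schedule, and the protocol a dose every 5 days. Mice given *Upf1*-GalNAc-ASO were not analysed here.

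Of 31198 symbols, 26 had been turned into dates and were left out. Log2(TPM + 1) of genes with a mean of at least 5 TPM over the 31 mice was fitted with limma 3.58.1 (R 4.3.3, trend and robust) in the mice of the groups compared, with sex as a term, and p-values were adjusted by Benjamini-Hochberg over all 9075 genes. The steps were tested on simulated data. Samples were grouped by their labels. Exact two-sided permutation tests over all splits of the mice served genes under the filter. Pseudocounts, filters, median-of-ratios scaling, array weights, a fit of all mice, sex, a replicate block and leaving out each mouse were the alternatives. Leaving out each DPBS-treated mouse in the comparisons with an ASO was added after the data were seen. The replicate block used only mice whose number occurred in both groups compared. The genes and lists were chosen with earlier results of these data known. Values by mouse were given for genes called in a comparison with an ASO, for the 3 largest changes in each comparison between ASOs and for 12 genes whatever their change (*Hspa5*, *Hsp90b1*, *Calr*, *Herpud1*, *Xbp1*, *Ern1*, *Atf4*, *Atf3*, *Ddit3*, *Asns*, *Gadd45a*, *Gadd45b*). Other genes with values by mouse (*Dnajb11*, *Ero1l*, *Ppp1r15b*) were picked after their values were seen. Promoters came from RefSeq (GRCm38.p6) and transcripts from GENCODE M21.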

Additional observations from a re-analysis of the deposited data

Results flagged for a closer look

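Within groups of 4 to 6 mice, a mouse was set apart by Dixon's test on log2(TPM + 1) in 21 of 159 groups of values. The test flags about 1 in 20 by chance only where values are normal. Where a single mouse of a group was above 0, it was flagged whatever its value. The count can therefore not be read as an excess over chance. Replicate 2 at 20 mg/kg of the *Upf3b* ASO accounted for 3 of the 21 flags: *Atf3* (29.2 TPM, next highest 1.03) and *Gadd45b* (79.7 TPM, next highest 0) were high and *Pdia4* was low (10.9 TPM, next lowest 19.8). Replicate 3 at 10 mg/kg, with the fewest reads, was low in 4 genes: *P4hb* (271 TPM, next lowest 657), *Manf* (24.5 TPM, next lowest 49.4), *Herpud1* (63.7 TPM, next lowest 109.0) and *Eif2ak3* (8.82 TPM, next lowest 29.1). Also at 10 mg/kg, *Asns* stood apart in replicate 1 at 2.27 TPM and *Gadd45b* in replicate 4 at 7.81 TPM.

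With the control ASO at 15 mg/kg replicate 4 was low in *Hspa5* (2152 TPM, next lowest 3165), *Hyou1* (164 TPM, next lowest 397), *Edem1* (34.6 TPM, next lowest 64.5) and *Derl1* (74.0 TPM, next lowest 166). In the same group *Derl2* was low in replicate 1 (20.6 TPM), *Asns* was high in replicate 2 (3.34 TPM), and *Ppp1r15b* (161 TPM) and *Gadd45a* (9.65 TPM) were high in replicate 3. At 20 mg/kg of the control ASO *Sel1l* was low in replicate 4 (107 TPM), and *Atf3* in replicate 2 (1.49 TPM), *Chac1* in replicate 6 (1.56 TPM) and *Gadd45b* in replicate 4 (1.5 TPM) were high, 3 values worth few reads.

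The fitted change of *Pdia4* had opposite signs at the higher and the lower doses of the ASOs, with a difference between the effects of -2.75 on the log2 scale (limma, unadjusted p = 0.00125, adjusted p = 0.407). In the test of that difference 0 of 9075 genes passed the adjusted threshold.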

How the results depend on the processing

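With the *Upf3b* ASO at 20 mg/kg against the control ASO, 1 of the 32 genes was called (limma), 0 without a filter on low values, 0 in a fit of all 31 mice, 0 with a replicate block, 2 with array weights (*Dnajb11*, *Dnajc3*) and 0 to 2 when 1 mouse was left out. For 10 mg/kg against 15 mg/kg the count was 0, 1 with array weights (*Pdia3*), 1 with the block (*Pdia4*, 2.54, adjusted p = 0.0325) and 0 to 2 with 1 mouse left out. Against DPBS at 20 mg/kg it was 1, 0 with the block and 1 to 2 with 1 mouse left out, and for the control ASO at 15 mg/kg against DPBS 0, or 1 with array weights (*Pdia3*). The block kept only mice whose replicate number occurred in both groups. At the lower doses it left 4 pairs, without replicate 5 of the treated mice, in which *Pdia4* was 18.3 TPM. The cause of these shifts was not tested. Replicate numbers did not pair the mice: deviations of same-numbered mice correlated between -0.322 and 0.208. With the block (limma), adjusted p at 20 mg/kg was 0.154 for *Dnajc3* against the control ASO and 0.184 against DPBS. For *Sil1* against DPBS at 20 mg/kg it was 0.184. These fits held 5 pairs each, so that only 5 of the 11 DPBS-treated mice were used. The loss of mice and the block terms were not tested apart.

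Over all genes, 235 were called at 20 mg/kg against the control ASO, 67 without a filter and 41 with the block. At the lower doses there were 20, 47 with a pseudocount of 5, 5 without a filter, 352 with array weights, 36 in the fit of all mice, 10 without a sex term and 107 with the block. Against DPBS there were 97 at 20 mg/kg, 154 with array weights, 149 in the fit of all mice and 31 with the block, and 30 at 10 mg/kg, 53 and 56 with the first 2 of these and 9 with the block. For the control ASO against DPBS 0 genes were called at either dose, and 11 at 20 mg/kg and 246 at 15 mg/kg with array weights.

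Directions turned as follows. At 20 mg/kg against the control ASO *Herpud1* became 0.027 under median-of-ratios scaling and 0.043 with the block (-0.29 to 0.11 with 1 mouse left out), *Edem1* 0.048 under that scaling (-0.16 to 0.12) and *Gadd45a* -0.40 with array weights (-0.81 to 1.0). At the lower doses, with the block, *Hspa5* became 0.052 (-0.19 to 0.052 with 1 mouse left out), *Hsp90b1* 0.0053 (-0.43 to 0.29) and *Calr* -0.0099 (-0.080 to 0.21). *Dnajc3* became -0.20 there with array weights (-0.42 to 0.57), and -0.40 at 10 mg/kg against DPBS (-0.51 to 0.36). Single genes gave 32 results, each a chosen gene, *Sil1* included, in 1 comparison, which are not the 32 tested genes. Of these results, 18 kept their direction and their side of the threshold under every alternative other than leaving out mice. With each mouse left out in turn, 18 did. Depth limits *Sil1* in the *Upf3b* ASO mice, with 6 of 10 values worth at most 3 reads, and the 6 genes under the filter, with 106 of 186.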
